A study of Homo sapiens with 9 samples.

Results

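The comparison of spinal cord organoids (SCOs) given valproic acid (VPA) together with Rapamycin against SCOs given VPA alone rests on 6 of the 9 RNA sequencing libraries of the study, which are the 3 labelled VPA and the 3 labelled VPA+Rapamycin. SCOs are free-floating cultures grown from human induced pluripotent stem cells that form an elongating tube of spinal cord tissue. All libraries were made from whole SCOs of the WTC line, labelled as wild type and treated for 96 h, and the remaining 3 libraries are the vehicle group, titled FGF after the growth factor in the medium. The WTC cells carried an inserted reporter of SOX10, the gene that marks neural crest cells, and came from 3 edited clones, some of which have small insertions or deletions on the other SOX10 allele. Several SCOs of a clone were pooled for each library, the labels do not say which clone a replicate number stands for, and the study's text gives a shorter exposure than the labels do. The labels state no dose, so none is given for either agent. In the study's heatmaps of these data each column stands for a single clone of the 3. Nothing in the labels shows whether the libraries of a group came from separate cultures. The p-values therefore measure the spread among libraries from clones of a single line, which may be partly technical, and not the spread among donors.

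VPA inhibits histone deacetylases, the enzymes that take acetyl groups off histones, and raises the acetylation of chromatin. Rapamycin binds FKBP12 and blocks mTOR complex 1, a kinase that promotes protein synthesis, ribosome production, lipid synthesis and growth and restrains autophagy when nutrients are plentiful. In the developing spinal cord, dividing progenitors held back by Notch signalling give rise to neurons of set types, while the neural crest leaves the dorsal tube to form peripheral neurons, glia, pigment cells and mesenchyme.

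Depth was similar, with 16217848 to 17417302 reads counted on genes in the VPA libraries and 15609633 to 16795878 in the VPA+Rapamycin libraries. Levels are given in CPM, the count of a gene relative to the library size after TMM scaling, and a floor of 3 counts corresponded to 0.172 to 0.192 CPM in these libraries. Progenitor markers (SOX1, SOX2, PAX6, PAX3 and NES) summed to 1454 to 1553 CPM in VPA and 1405 to 1505 CPM in VPA+Rapamycin, and trunk HOX genes were present in all 6 libraries. Blood markers were at or near 0, with PTPRC and HBA1 at 0 throughout. The spread among replicates exceeded counting noise: chi-square divided by the number of genes was 4.75 to 7.56 for pairs of VPA libraries and 6.55 to 14.4 for pairs of VPA+Rapamycin libraries, and counting noise alone would give about 1. The 2 pairs with VPA+Rapamycin replicate 2 had the larger values of its group, 14.4 and 11, and that library had the smallest share of mitochondrial reads, 5.14%, against up to 7.41% in the other VPA+Rapamycin libraries. On the second principal component (19.2% of variance) VPA+Rapamycin replicate 1 was the one apart, at 32.2 against -15.8 and -7.55 for replicates 2 and 3.

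Across the transcriptome, 1168 of 17317 genes tested (6.74%) differed between VPA+Rapamycin and VPA at an adjusted p of at most 0.05 (edgeR quasi-likelihood test with Benjamini-Hochberg adjustment, 3 libraries against 3). Of these, 522 were raised by the addition of Rapamycin (3.01% of genes tested) and 646 were lowered (3.73%). The counts of every gene list below are to be read against these shares. Most changes were small. The median log2 fold change was 0.44 among the raised and -0.52 among the lowered genes, 86.5% of all genes tested lay within 0.5 of 0 on the log2 scale, and 64 raised and 124 lowered genes changed at least 2-fold. The 3 libraries of each group did not overlap for 4398 genes (25.4%) and for 1140 of the 1168 called genes. The calls changed with the library left out, and each removal also leaves the test less power. They fell to 261 raised and 355 lowered without VPA replicate 1 and to 175 and 297 without VPA replicate 2. The counts were 337 and 429 without VPA replicate 3 and 217 and 346 without VPA+Rapamycin replicate 3. Without VPA+Rapamycin replicate 1 there were 533 and 670, and without VPA+Rapamycin replicate 2 there were 477 and 603. In all, 123 raised and 219 lowered genes kept their call without each of the 6 libraries in turn, and these are described below as held. A fit that also held the vehicle libraries called 44 raised and 69 lowered genes, of which 112 were among the 1168, so the count of members called in that fit, named the fit with vehicle, is given with each group.

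**Figure D1:**
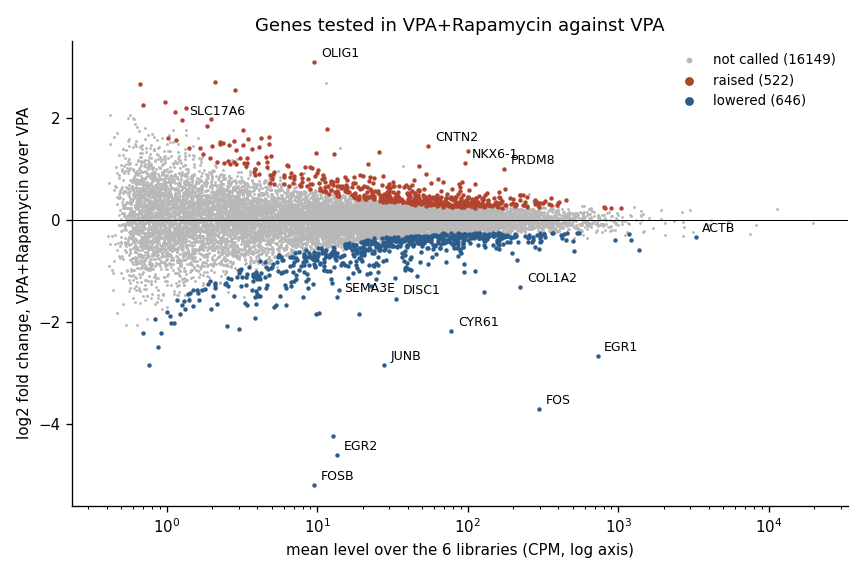
Log2 fold change of VPA+Rapamycin over VPA (vertical axis) against the mean level over the 6 libraries in CPM (horizontal log axis), with 1 point for each of the 17317 genes tested. Raised genes (522) and lowered genes (646) are coloured, and FOS and EGR1 lie far below the bulk of the points at high levels.

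The deepest falls were in immediate early genes, transcription factors that cells switch on within minutes of a stimulus without new protein synthesis. Of 21 tested members of this list, 10 were lowered against 3.73% of all genes, 0 were raised, and the list median was log2 -0.51 against 0.00 for all genes tested. FOS, a subunit of the AP-1 transcription factor, stood at 496, 462 and 689 CPM in the VPA libraries and at 37.0, 44.8 and 44.7 CPM with Rapamycin. This was a 13.0-fold lower level (log2 fold change -3.70, SE 0.13, edgeR adjusted p = 1.80e-12), and the vehicle libraries held 45.8 to 56.2 CPM. EGR1, a zinc finger factor induced by growth factors through ERK and SRF, gave 1217, 1108 and 1456 CPM in VPA against 221, 192 and 179.8 CPM (log2 -2.67, SE 0.10, edgeR adjusted p = 3.39e-12). Its 3 VPA libraries were all more than 5 times as high as any of its VPA+Rapamycin libraries. EGR2, the related factor of the hindbrain and of Schwann cells, went from 29.3, 16.9 and 32.3 CPM to 0.834, 1.10 and 1.26 CPM, a level close to that of the vehicle libraries at 0.527 to 1.18 CPM (log2 -4.61, SE 0.26, edgeR adjusted p = 2.49e-09). The groups were far apart for EGR2, with no VPA library under 16.9 CPM and no VPA+Rapamycin library above 1.26 CPM.

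JUN, the main partner of FOS, fell less, from 164, 171 and 223 CPM to 58.2, 76.5 and 75.1 CPM (log2 -1.41, SE 0.11, edgeR adjusted p = 4.20e-07). IER2, a small nuclear protein of the same early response, stood at 55.9, 48.4 and 63.8 CPM in VPA and 30.7, 28.2 and 26.2 CPM with Rapamycin (log2 -0.98, SE 0.11, edgeR adjusted p = 2.66e-05). The groups were separate for both genes. The nuclear receptor NR4A1 fell by 1.30 on the log2 scale, and EGR3, another zinc finger factor of the EGR family, had 25.3, 14.5 and 32.7 CPM against 0.715, 1.22 and 1.89 CPM (log2 -4.24). JUNB (log2 -2.84) and FOSB (-5.19) also fell, but each shares its locus with another gene, HOOK2 and ERCC1, whose counts were 60.0% and 502% of their own, so part of their reads is uncertain. The response was not shared by every member of the family: JUND (log2 -0.14), FOSL2 (-0.13), KLF4 (-0.06), KLF6 (-0.32), MYC (-0.44), NR4A2 (0.08) and IER3 (0.14) did not pass the test. FOSL1, with 2.51, 3.40 and 2.96 CPM against 1.37, 1.34 and 0.944 CPM, passed (log2 -1.27, edgeR adjusted p = 0.0301) but not without VPA replicate 2 (adjusted p = 0.129), VPA replicate 3 (0.0747) or VPA+Rapamycin replicate 3 (0.119). The other 9 lowered members held, and 9 were called in the fit with vehicle.

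Several of the lowered genes carry a CArG box, the sequence bound by serum response factor (SRF), in the RefSeq promoter window of 250 bases before to 50 bases after the start (GRCh38.p14, both strands searched). A window was matched for 488 lowered, 381 raised and 11689 tested genes. The box was found in 18 lowered promoters (3.69%), 7 raised promoters (1.84%), 125 promoters of tested genes (1.07%) and 1.29% of all 27305 promoters. The AP-1 site TGANTCA was in 4.10% of lowered, 4.20% of raised and 4.31% of tested promoters. For the EGR site GCGTGGGCG the shares were 1.02%, 1.84% and 1.33%. Among 8 lowered immediate early genes with a window, 1 had a CArG box, and 0 had an AP-1 or EGR site. Sites outside the window and variants of these letters were not searched, so the counts do not show that such sites are absent from these genes. The 4 windows below belong to EGR1, to SRF itself and to the muscle-type contractile genes MYLK and ACTC1. They were picked from the 18 for what these genes do and not by rank or distance. The lowered genes HES5, HES3 and ISG15 have boxes nearer the start than those of MYLK and ACTC1. Capitals mark the boxes, which are a match in letters and not a measured binding site. EGR1 lies at chr5:138465354-138465425 on the plus strand and SRF at chr6:43171219-43171288 on the plus strand. MYLK lies at chr3:123620613-123620662 and ACTC1 at chr15:34795629-34795678, both on the minus strand.
EGR1: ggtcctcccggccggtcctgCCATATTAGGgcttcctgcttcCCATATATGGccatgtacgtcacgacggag
SRF: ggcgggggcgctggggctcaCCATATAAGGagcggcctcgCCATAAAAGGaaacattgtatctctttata
MYLK: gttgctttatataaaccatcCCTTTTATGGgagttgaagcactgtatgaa
ACTC1: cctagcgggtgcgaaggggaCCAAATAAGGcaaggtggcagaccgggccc
EGR1 and SRF each hold 2 boxes in the window, and MYLK and ACTC1 hold 1.

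Genes of the actin cytoskeleton and the targets of SRF and YAP, the factors that read actin and cell tension, moved in both directions. Of 24 tested members, 8 fell and 2 rose, and the list median was log2 -0.22. SRF had 68.1, 71.4 and 82.7 CPM in VPA and 57.5, 54.3 and 49.3 CPM with Rapamycin, which did not overlap (log2 -0.46, SE 0.09, edgeR adjusted p = 0.00516). The matricellular YAP target CYR61 fell by 2.18 on the log2 scale, the smooth muscle protein CNN1 by 0.99 and the actin-bundling TAGLN2 by 0.45. MYLK, the myosin light chain kinase, and ACTC1, cardiac actin, are not on the list and were chosen after their values were seen, as lowered genes with a CArG box. MYLK went from 89.4, 93.4 and 92.9 CPM to 63.3, 47 and 45.4 CPM (log2 -0.82, SE 0.10, edgeR adjusted p = 9.86e-05). ACTC1 went from 7.47, 4.02 and 5.74 CPM to 1.73, 1.80 and 2.52 CPM (log2 -1.51, SE 0.29, edgeR adjusted p = 0.00349). Both genes were separate between the groups. AMOTL2, a YAP target that in turn retains YAP in the cytoplasm, rose instead, from 23.7, 24.8 and 23.0 CPM to 40.3, 34.6 and 35.0 CPM (log2 0.63, SE 0.10, edgeR adjusted p = 0.00113), and AJUBA rose by 0.41. The 8 lowered members were 5 without VPA replicate 1 or VPA replicate 2, 4 without VPA+Rapamycin replicate 3 and 1 in the fit with vehicle, which called 1 raised member.

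Feedback genes of the ERK pathway also split. DUSP1, a phosphatase that switches off MAP kinases, stood at 51.2, 49.4 and 60.0 CPM in VPA and 26.0, 25.8 and 30.5 CPM with Rapamycin (log2 -0.96, SE 0.10, edgeR adjusted p = 2.36e-05). DUSP5, which acts on nuclear ERK, went from 15, 10.6 and 10.3 CPM to 4.05, 5.0 and 3.52 CPM (log2 -1.50, SE 0.21, edgeR adjusted p = 0.00026). The libraries of the groups were separate for both phosphatases. SPRY1, an inhibitor of receptor tyrosine kinase signalling that FGF induces, moved the other way, from 47.2, 58.4 and 33.7 CPM to 87.6, 72.2 and 82.0 CPM (log2 0.80, SE 0.13, edgeR adjusted p = 0.00138). Vehicle libraries held 133 to 149 CPM of SPRY1. In the list of 18, 3 members rose and 2 fell with a list median of log2 0.03, and the rise of ETV4 by 0.74 is uncertain since DHX8 overlaps it with 477% of its counts. The fit with vehicle called 1 raised and 2 lowered members.

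**Figure D2:**
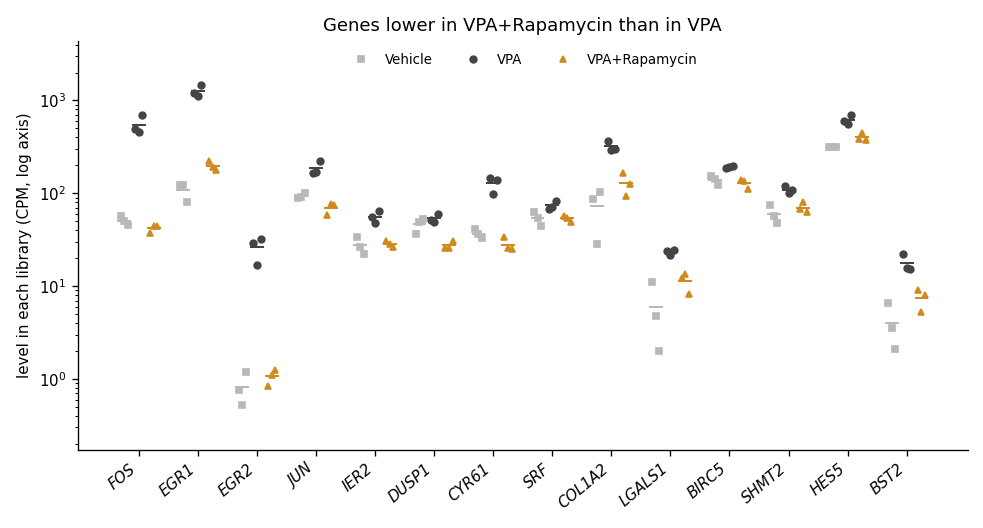
Level in CPM (vertical log axis) of 14 lowered genes in each vehicle, VPA and VPA+Rapamycin library, with points for libraries and bars for the mean of 3. For each gene the 3 VPA+Rapamycin points lie below the 3 VPA points, and FOS, EGR1 and EGR2 show the widest gaps.

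Fibrillar collagens and other products of connective tissue cells fell. Of 36 tested collagen and matrix genes, 9 were lowered and 1 was raised, with a list median of log2 -0.23. COL1A2, a chain of type I collagen, had 364, 296 and 299 CPM in VPA and 164, 94.1 and 125 CPM with Rapamycin (log2 -1.32, SE 0.14, edgeR adjusted p = 1.08e-05). COL1A1, the other chain, went from 317, 237 and 258 CPM to 195, 141 and 130.0 CPM (log2 -0.79, SE 0.12, edgeR adjusted p = 0.000682). LUM, a proteoglycan that orders collagen fibrils, went from 24.1, 20.4 and 16.0 CPM to 7.39, 5.76 and 10.2 CPM (log2 -1.37, SE 0.19, edgeR adjusted p = 0.000282). No VPA+Rapamycin library reached a VPA library in these genes. COL12A1 (log2 -1.15), which coats fibrils, COL5A2 (-0.56), which limits fibril width, and THBS1 (-0.92), an adhesive glycoprotein that activates TGF-beta, also fell, and FSIP1 overlaps THBS1 at 20.7% of its counts. COL9A1, a cartilage collagen, rose by 0.36 but lost its call without any library except VPA+Rapamycin replicate 1. COL9A2, another chain of the same collagen, fell by 0.47 (edgeR adjusted p = 0.00738). Of the 9 lowered members, 6 held and 2 were called in the fit with vehicle, which called 0 raised.

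Intracellular mesenchymal genes moved with the matrix. In the mesenchymal list, 8 of 22 tested members fell, 1 rose and the list median was log2 -0.52. The galectin LGALS1 went from 24.0, 21.8 and 24.4 CPM to 12.1, 13.4 and 8.31 CPM (log2 -1.05, SE 0.15, edgeR adjusted p = 0.000444). S100A11, a calcium-binding protein, went from 36.9, 36.0 and 29.5 CPM to 21.4, 13.9 and 14.9 CPM (log2 -1.02, SE 0.14, edgeR adjusted p = 0.000298). Both kept the groups apart, as did the membrane-binding ANXA2, which fell by 0.48. TWIST1, a transcription factor of mesenchyme, stood at 2.69, 1.11 and 2.50 CPM against 0.893, 0.581 and 0.629 CPM and passed (log2 -1.57, edgeR adjusted p = 0.0398), though not without VPA replicate 1 (0.178), VPA replicate 3 (0.143), VPA+Rapamycin replicate 2 (0.105) or VPA+Rapamycin replicate 3 (0.135). The mesenchymal factor PRRX1 (log2 -1.34) and the receptor PDGFRA (-0.49) did not pass. The lowered count was 4 without VPA replicate 1, VPA replicate 3, VPA+Rapamycin replicate 2 or VPA+Rapamycin replicate 3, 5 without VPA replicate 2 and 0 in the fit with vehicle, which called 0 raised. The 5 mesenchyme markers (COL1A1, COL1A2, PDGFRA, PRRX1 and TWIST1) summed to 536 to 688 CPM in VPA, 237 to 363 CPM in VPA+Rapamycin and 133 to 290 CPM in vehicle, and bulk libraries cannot tell fewer cells of a type from less RNA per cell. The part of cell makeup in the fall of these genes was not tested.

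Regulators of the cell cycle were lower. All but 1 of 32 tested mitotic genes had a lower estimate with Rapamycin, 13 fell and 0 rose, with a list median of log2 -0.23. BIRC5, also known as survivin and part of the chromosomal passenger complex, had 188, 194 and 195 CPM in VPA and 139.8, 134 and 112 CPM with Rapamycin (log2 -0.57, SE 0.08, edgeR adjusted p = 0.000389). KIF11, the kinesin that pushes spindle poles apart, went from 225, 223 and 211 CPM to 178, 147 and 163 CPM (log2 -0.43, SE 0.08, edgeR adjusted p = 0.00279). The groups did not overlap for either gene. The spindle checkpoint kinases BUB1B and BUB1 fell by 0.44 and 0.36. MKI67 and TOP2A, common markers of dividing cells, had estimates of -0.19 each and did not pass. The count of 13 was 8 without VPA replicate 1, 6 without VPA replicate 2, 7 without VPA+Rapamycin replicate 3 and 2 in the fit with vehicle.

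The cell cycle homology region TTTGAA, an element of promoters active in G2 and M phase, was found on either strand in 20 of the 27 tested mitotic genes with a promoter window (74.1%) and in 5 of the 10 lowered ones. It was in 15.4% of all promoters, 9.75% of those of tested genes, 15.4% of lowered and 9.97% of raised genes. The 2 windows below are those of lowered and held mitotic genes with the element near the start, with TTTGAA or its reverse complement in capitals. BUB1B lies at chr15:40161026-40161071 and KIF11 at chr10:92593082-92593127, both on the plus strand of GRCh38.p14.
BUB1B: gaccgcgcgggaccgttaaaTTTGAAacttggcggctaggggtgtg
KIF11: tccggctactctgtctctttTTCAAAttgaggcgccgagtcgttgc

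Estimates for DNA replication genes were also lower: 34 of 37 had a lower estimate, 9 fell, 0 rose and the list median was log2 -0.26. RFC3, a subunit of the clamp loader, went from 71.3, 71.0 and 65.4 CPM to 50.4, 45.5 and 51.2 CPM (log2 -0.49, SE 0.08, edgeR adjusted p = 0.00155), with no overlap. It was the only replication gene that held. The helicase subunit MCM3 had 187, 193 and 178 CPM against 162, 139.7 and 133 CPM (log2 -0.35, edgeR adjusted p = 0.0119), and missed the threshold without VPA replicate 2 (0.0783) or VPA+Rapamycin replicate 3 (0.0710). The count of 9 moved widely, to 1 without VPA replicate 2, 2 without VPA+Rapamycin replicate 3, 5 without VPA replicate 3 or VPA+Rapamycin replicate 2, 16 without VPA+Rapamycin replicate 1 and 0 in the fit with vehicle. Inhibitors of the cycle were not raised either. CDKN1A, which encodes p21 and stops cyclin-dependent kinases, had 37.3, 31.7 and 39.8 CPM in VPA and 24.0, 27.8 and 19.1 CPM with Rapamycin (log2 -0.61, SE 0.13, edgeR adjusted p = 0.00722). BTG2, an antiproliferative p53 target, went from 128, 108 and 143 CPM to 59.6, 63.4 and 64.3 CPM (log2 -1.02, SE 0.09, edgeR adjusted p = 2.15e-06), well apart in every library. Of 24 tested CDK inhibitors and p53 targets, 5 fell and 0 rose, and the count was 3 without VPA replicate 1 or VPA+Rapamycin replicate 3 and 1 in the fit with vehicle.

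Amino acid and one-carbon metabolism, which mTOR complex 1 promotes through the factor ATF4, was lower. Of 31 tested members of this list, 10 fell and 0 rose, 27 had a lower estimate and the list median was log2 -0.25. SHMT2, the mitochondrial enzyme that takes 1 carbon from serine, went from 119, 101 and 109 CPM to 67.4, 79.9 and 63.2 CPM (log2 -0.64, SE 0.09, edgeR adjusted p = 0.000407). PHGDH, which begins serine synthesis, went from 174, 168 and 176 CPM to 125, 134 and 108 CPM (log2 -0.49, SE 0.08, edgeR adjusted p = 0.00125). ATF4 itself had 213, 196 and 215 CPM in VPA and 145, 166 and 152 CPM with Rapamycin (log2 -0.43, SE 0.08, edgeR adjusted p = 0.00231). All 3 genes were lower in each VPA+Rapamycin library than in any VPA library. The folate enzymes MTHFD2 and MTHFD1L fell by 0.49 and 0.47, and the leucine importer SLC7A5 by 0.55. SLC7A11, the cystine importer, fell by 1.34 but missed the threshold without VPA replicate 1 (edgeR adjusted p = 0.0661). ASNS (log2 0.20), the asparagine synthetase, DDIT3 (-0.24) and DDIT4 (-0.55), other ATF4 targets, did not pass. Of the 10 lowered, 6 held and 0 were called in the fit with vehicle. The ATF4 composite element TGATGNAAN, searched on both strands, was in 5 of the 26 tested promoters of this list (19.2%) and in 1 of its 7 lowered ones, against 1.61% of those of all tested genes and 3.67% of all promoters.

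Sterol synthesis, another mTOR-dependent pathway, showed 6 lowered and 0 raised genes of 25, with 24 lower estimates and a median log2 fold change of -0.22. FDPS, which makes farnesyl diphosphate, had 94.7, 95.6 and 91.5 CPM in VPA and 63.8, 76.6 and 64.1 CPM with Rapamycin (log2 -0.46, SE 0.08, edgeR adjusted p = 0.00274). DHCR7, the last step to cholesterol, went from 88.3, 86.3 and 79.1 CPM to 63.8, 66.1 and 60.8 CPM (log2 -0.41, SE 0.08, edgeR adjusted p = 0.00378). Both were separate between groups. The 6 calls were 2 without VPA replicate 2, 3 without VPA+Rapamycin replicate 3 and 0 in the fit with vehicle. The NF-Y box CCAAT, on either strand, was in 15 of 18 sterol promoters of tested genes (83.3%) and in 36.2% of those of all tested genes. The sterol element TCACNCCAC was in only 1 of these 18 promoters and in 0 of the 5 lowered ones, against 1.06% of those of all tested genes.

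The machinery of protein synthesis changed little at the level of mRNA. Of 82 tested ribosomal protein genes, 2 rose and 1 fell with a list median of log2 0.02, and the lowered member was RPL22L1, a paralog of RPL22, which fell by 0.62. Ribosome biogenesis factors had 34 of 36 estimates below 0 with a list median of log2 -0.15, but only GRWD1 was called (log2 -0.40), and not without VPA replicate 2, VPA replicate 3 or VPA+Rapamycin replicate 3. Among 20 transfer RNA synthetases 3 fell, of which TARS, for threonine, held at 141, 156 and 153 CPM against 111, 106 and 101 CPM (log2 -0.50, SE 0.07, edgeR adjusted p = 0.000542). The fit with vehicle called 1 ribosomal protein gene, 0 biogenesis factors and 1 synthetase, all lowered. Glycolysis and hypoxia targets had 3 lowered of 33 tested (9.09%, against 3.73% of all genes) with a list median of log2 -0.18. LDHA, which makes lactate, was at 1232, 1039 and 979 CPM against 672, 946 and 837 CPM (log2 -0.40, edgeR adjusted p = 0.0282), and lost its call without VPA replicate 1 (0.154), VPA replicate 2 (0.0748), VPA+Rapamycin replicate 1 (0.0925) or VPA+Rapamycin replicate 3 (0.0767). The list turned on single libraries, with 0 lowered without VPA replicate 1, VPA replicate 2 or VPA+Rapamycin replicate 3, 2 lowered without VPA replicate 3 and 15 lowered without VPA+Rapamycin replicate 2, while without VPA+Rapamycin replicate 1 the count was 3 raised and 1 lowered, and the fit with vehicle called 0. None of the 13 mRNAs of the mitochondrial genome was called by edgeR (1 had an unadjusted p under 0.05) or by DESeq2, and limma-voom called 1, while all 13 had a lower estimate and the list median was log2 -0.10. MT-RNR1, a ribosomal RNA of the mitochondrial genome, is not an mRNA and was chosen after its values were seen. It was lowered (log2 -0.59, edgeR adjusted p = 0.000389).

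Autophagy and the mTOR pathway itself showed few changes, and those were mostly upward. Of 37 autophagy genes 5 rose and 0 fell, with a list median of log2 -0.03. ULK1, the kinase that starts autophagy and is inhibited by mTOR complex 1, went from 72.0, 75.4 and 83.1 CPM to 97.2, 109.5 and 104 CPM without overlap (log2 0.44, SE 0.08, edgeR adjusted p = 0.00288). It was the only autophagy gene that held, and the count of 5 was 3 without VPA replicate 1 or VPA+Rapamycin replicate 1, 2 without VPA+Rapamycin replicate 3, 1 without VPA replicate 2 or VPA replicate 3, and 0 in the fit with vehicle. The receptor SQSTM1 (-0.16) and the lysosomal factor TFEB (-0.25) did not pass. Of 38 lysosomal genes 4 fell (10.5%, against 3.73% of all genes) and 0 rose. The lowered count was 1 without VPA replicate 2, 2 without VPA+Rapamycin replicate 3 and 0 in the fit with vehicle. Of 31 mTOR pathway genes 4 rose (12.9%) and 1 fell (3.23%), against 3.01% and 3.73% of all genes. RICTOR, the core of mTOR complex 2, rose by 0.41 while MTOR was at 0.12 and did not pass. None of these 5 calls held, and the 4 raised were 2 without VPA replicate 1 or VPA+Rapamycin replicate 2 and 0 without VPA replicate 2, VPA replicate 3 or VPA+Rapamycin replicate 3, and the fit with vehicle called 0 of the 5.

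Insulin signalling and FOXO targets included clear single changes in both directions, with 4 raised and 3 lowered of 25 tested and a median log2 fold change of 0.14. KLHL24, a ubiquitin ligase adaptor induced by FOXO factors, had 70.5, 67.6 and 60.1 CPM in VPA and 108, 106 and 109 CPM with Rapamycin (log2 0.71, SE 0.08, edgeR adjusted p = 2.66e-05). SESN3, a sestrin that restrains mTOR complex 1, fell from 346, 325 and 329 CPM to 224, 216 and 249 CPM (log2 -0.53, SE 0.07, edgeR adjusted p = 0.000298). Neither overlapped. INSR, the insulin receptor, had 39.4, 37.9 and 40.2 CPM against 52.0, 48.1 and 53.2 CPM (log2 0.39, edgeR adjusted p = 0.0120) and missed the threshold without VPA replicate 2 (0.0784) or VPA+Rapamycin replicate 3 (0.0584). The 4 raised members were 2 without VPA replicate 1 or VPA+Rapamycin replicate 3, 1 without VPA replicate 2 and 0 in the fit with vehicle, which called 0 lowered members.

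Effectors of Notch signalling, which hold progenitors undifferentiated, fell. HES5, the main Notch effector of spinal progenitors, stood at 595, 556 and 698 CPM in VPA and 389, 444 and 376 CPM with Rapamycin (log2 -0.61, SE 0.09, edgeR adjusted p = 0.000444). HES1, its relative, went from 28.1, 18.4 and 20 CPM to 8.81, 9.77 and 11.5 CPM (log2 -1.14, SE 0.16, edgeR adjusted p = 0.000389). HES3, another member of the family, which is not on the list and was chosen after its values were seen as a lowered gene with a CArG box, had 11, 10.3 and 7.05 CPM against 4.59, 3.37 and 3.59 CPM (log2 -1.29, SE 0.22, edgeR adjusted p = 0.00157). All 3 HES genes kept the groups apart. HES5 is on the list of lowered genes with a CArG box, in the window chr1:2530265-2530314 on the minus strand of GRCh38.p14, where the box lies within 40 bases of the start. It is a match in letters and not a measured binding site. The match contains TATATA, so it cannot be told apart from a TATA box here.
HES5: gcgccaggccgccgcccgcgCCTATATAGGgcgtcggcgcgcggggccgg
The receptor NOTCH1 moved the other way, from 346, 387 and 443 CPM to 446, 571 and 512 CPM (log2 0.38, edgeR adjusted p = 0.0209), as did DLL3 (log2 0.46), a ligand-like inhibitor of Notch in newborn neurons. NOTCH1 missed the threshold without VPA replicate 1 (0.124), VPA replicate 2 (0.101), VPA+Rapamycin replicate 2 (0.0574) or VPA+Rapamycin replicate 3 (0.0703), and DLL3 without VPA replicate 1 (0.0573), VPA replicate 2 (0.0737) or VPA+Rapamycin replicate 3 (0.0619). In the list of Sonic hedgehog, retinoic acid and Notch genes, 4 rose and 5 fell of 37 tested, with a list median of log2 -0.02. The 4 raised were 0 without VPA replicate 1 or VPA replicate 2, 2 without VPA+Rapamycin replicate 2 and 1 without VPA+Rapamycin replicate 3, and the 5 lowered were 3 without VPA replicate 2, VPA replicate 3 or VPA+Rapamycin replicate 3 and 8 without VPA+Rapamycin replicate 1. The fit with vehicle called 0 raised and 2 lowered members.

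On the raised side, proneural genes, the transcription factors that commit progenitors to become neurons, led by share. Of 19 tested members 11 rose, against 3.01% of all genes, 0 fell, 18 had a higher estimate and the list median was log2 0.46. ST18, a zinc finger factor of newborn neurons, went from 34.5, 33.4 and 42.4 CPM to 70.6, 67.6 and 68.4 CPM (log2 0.91, SE 0.10, edgeR adjusted p = 1.69e-05). INSM1, which drives the exit of neural progenitors into terminal division, went from 41.3, 40 and 47.4 CPM to 64.6, 79.5 and 68.9 CPM (log2 0.73, SE 0.10, edgeR adjusted p = 0.000178). Every VPA+Rapamycin library lay above every VPA library in both genes. Vehicle libraries held 81.5 to 147 CPM of ST18 and 127 to 150.1 CPM of INSM1.

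NEUROD1, a later factor of neuronal differentiation, rose from 10, 12.6 and 12.4 CPM to 17.9, 20.4 and 22 CPM (log2 0.79, SE 0.14, edgeR adjusted p = 0.00212), with CERKL overlapping it at 59.9% of its counts. The EBF factors of early postmitotic neurons followed, with EBF3 up by 0.61 and EBF2 by 0.65, and NHLH2 rose by 0.75. NEUROG2, a proneural factor of motor neuron and interneuron progenitors, was at 6.09, 4.39 and 4.55 CPM against 7.03, 9.48 and 10.7 CPM (log2 0.86, edgeR adjusted p = 0.0193). It missed the threshold without VPA replicate 2 (0.0913), VPA replicate 3 (0.0699) or VPA+Rapamycin replicate 3 (0.114). Of the 11 raised members 7 held, 7 were called without VPA replicate 2, 7 without VPA+Rapamycin replicate 3 and 4 in the fit with vehicle.

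Of 30 tested factors and transmitter genes of spinal neuron types, 15 rose, against 3.01% of all genes, and 1 fell. The list had 25 higher estimates and a median log2 fold change of 0.68. VSX1, expressed in the precursors of V2 interneurons, went from 21.1, 22.6 and 27.9 CPM to 37.7, 42.4 and 40 CPM (log2 0.75, SE 0.11, edgeR adjusted p = 0.000567). GATA2, of the inhibitory V2b interneurons, went from 5.08, 3.89 and 7.96 CPM to 11.2, 14.6 and 16.6 CPM (log2 1.32, SE 0.22, edgeR adjusted p = 0.00155). The groups did not overlap for either gene. EN1, of the inhibitory V1 interneurons, had 1.55, 1.73 and 4.26 CPM in VPA and 6.91, 8.66 and 5.73 CPM with Rapamycin (log2 1.49, SE 0.31, edgeR adjusted p = 0.00747). LMX1B, of dorsal excitatory neurons and of the roof plate, was the single lowered member, from 5.26, 5.25 and 6.82 CPM to 2.56, 2.56 and 2.64 CPM (log2 -1.15, SE 0.24, edgeR adjusted p = 0.00677). The motor neuron genes MNX1 (0.32) and CHAT (0.22) did not pass.

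Genes for making and loading transmitters followed these factors. GAD2, which makes GABA, rose from 5.32, 4.32 and 6.65 CPM to 10.3, 11.7 and 11.3 CPM (log2 1.03, SE 0.19, edgeR adjusted p = 0.00289). SLC6A5, the glycine transporter of inhibitory neurons, rose from 3.88, 3.58 and 4.72 CPM to 9.95, 9.36 and 6.23 CPM (log2 1.07, SE 0.22, edgeR adjusted p = 0.00663), where vehicle libraries held 26.1 to 33.2 CPM. Both inhibitory genes were separate between the groups. SLC17A6, the vesicular glutamate transporter, was at 0.597, 0.432 and 0.512 CPM in VPA and 1.85, 2.03 and 2.20 CPM with Rapamycin (log2 1.97, SE 0.42, edgeR adjusted p = 0.00865), against 10.3 to 29 CPM in vehicle. It rests on 7 to 10 reads in each VPA library and missed the threshold without VPA replicate 2 (adjusted p = 0.0548). SLC32A1, which loads GABA and glycine into vesicles, rose by 0.99 and also missed it without VPA replicate 2 (0.0548). Across this list the 15 raised genes were 7 without VPA replicate 2 and 4 in the fit with vehicle, which called 0 lowered.

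**Figure D3:**
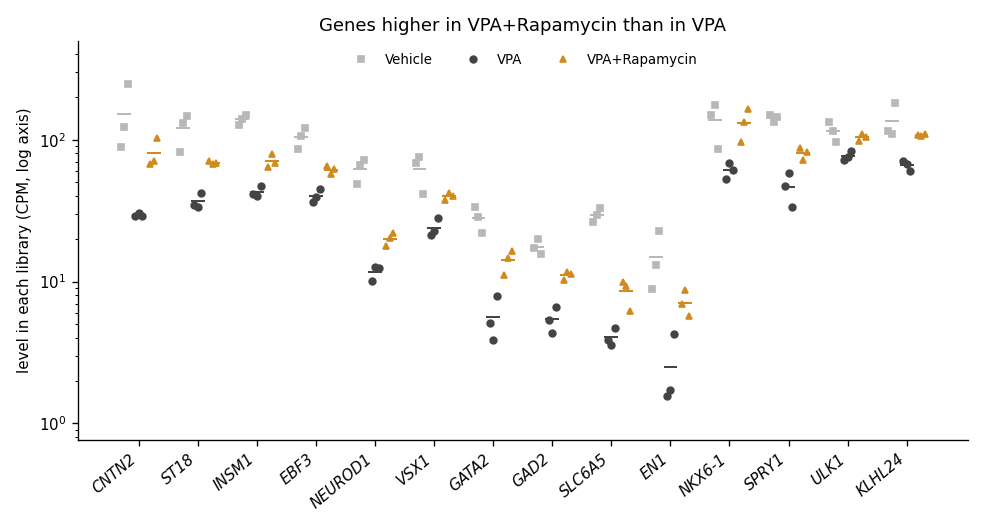
Level in CPM (vertical log axis) of 14 raised genes in each vehicle, VPA and VPA+Rapamycin library, with points for libraries and bars for the mean of 3. For each gene the 3 VPA+Rapamycin points lie above the 3 VPA points, and for SLC6A5 the vehicle points lie higher again, at 26.1 to 33.2 CPM.

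General neuronal genes rose less evenly. Of 37 tested, 9 rose and 1 fell, and the list median was log2 0.20. CNTN2, an adhesion molecule on the first axons of commissural and motor neurons, had the smallest adjusted p of all raised genes, at 28.9, 30.5 and 28.8 CPM in VPA and 67.2, 70.4 and 103 CPM with Rapamycin (log2 1.45, SE 0.13, edgeR adjusted p = 1.37e-06). The vehicle libraries spread from 88.4 to 246 CPM for this gene. The vesicle protein SYT4 rose by 0.49 and held, while DCX, the microtubule protein of migrating neurons, rose by 0.28 and did not hold without VPA replicate 1 (0.154), VPA replicate 2 (0.110), VPA replicate 3 (0.0856) or VPA+Rapamycin replicate 3 (0.199). GAP43, of growing axons, went against the group, from 30.3, 35.3 and 35.5 CPM to 20.9, 23.3 and 22.5 CPM (log2 -0.60, SE 0.11, edgeR adjusted p = 0.00219). STMN2, another growth cone gene, was at -0.19 and did not pass. The 5 neuron markers (STMN2, DCX, TUBB3, ELAVL3 and ELAVL4) summed to 721 to 803 CPM in VPA and 773 to 816 CPM in VPA+Rapamycin, ranges that overlap. The 9 raised genes were 5 without VPA replicate 1, 4 without VPA replicate 2, 2 without VPA+Rapamycin replicate 3 and 1 in the fit with vehicle, which called 0 lowered.

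Progenitor genes changed in both directions. NKX6-1, a homeodomain factor of ventral progenitors, rose from 53.2, 68.8 and 60.9 CPM to 97.0, 134 and 164 CPM (log2 1.11, SE 0.14, edgeR adjusted p = 8.30e-05), with no overlap. IRX3, which sets the border above the motor neuron domain, fell from 197, 178 and 179.9 CPM to 145, 138 and 114 CPM (log2 -0.48, SE 0.09, edgeR adjusted p = 0.00263), and IRX5 fell by 0.52. FABP7, a lipid-binding protein of radial glia, fell from 179.8, 185 and 187 CPM to 124, 136 and 115 CPM (log2 -0.55, SE 0.08, edgeR adjusted p = 0.000292). The groups were separate in all of these. SOX2 (0.02) and PAX6 (-0.08), which mark progenitors broadly, did not pass, and 4 members rose and 4 fell of the 23 tested. The raised count was 2 without VPA replicate 3 or VPA+Rapamycin replicate 3 and 2 under DESeq2, and the fit with vehicle called 1 raised and 0 lowered.

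SHH, the signal of the floor plate that induces ventral genes, and OLIG1, of the motor neuron and oligodendrocyte domain, rested on VPA+Rapamycin replicate 3. SHH had 0.956, 1.48 and 1.88 CPM in VPA and 2.20, 2.21 and 10.4 CPM with Rapamycin (log2 1.77, edgeR adjusted p = 0.0372), and without that library its log2 fold change was 0.62 (adjusted p = 0.501). It also missed the threshold without VPA replicate 1 (0.131), VPA replicate 2 (0.109) or VPA replicate 3 (0.0671). OLIG1 had 0, 5.50 and 0.568 CPM against 1.91, 6.45 and 43.0 CPM, which overlap (log2 3.10, edgeR adjusted p = 0.0392), and 1.07 without the library (adjusted p = 0.563), with misses also without VPA replicate 1 (0.119) or VPA replicate 3 (0.147).

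Neural crest genes stayed low. SOX10, the gene that carries the reporter, had 5, 10 and 9 reads in the VPA and 8, 37 and 63 in the VPA+Rapamycin libraries, which is 0.299, 0.618 and 0.512 CPM against 0.476, 2.15 and 3.97 CPM. The groups overlap, and vehicle libraries held 14.2 to 20.5 CPM. The change passed the test (log2 2.19, SE 0.60, edgeR adjusted p = 0.0345) but not without VPA replicate 1 (0.127), VPA replicate 2 (0.0866), VPA replicate 3 (0.0946), VPA+Rapamycin replicate 2 (0.0597) or VPA+Rapamycin replicate 3 (0.268), and POLR2F, which overlaps it, had 12 times its counts at 1233%. FOXD3, an early crest factor that also marks V1 interneurons, rose from 2.39, 2.78 and 3.58 CPM to 5.36, 8.08 and 5.67 CPM (log2 1.13, SE 0.25, edgeR adjusted p = 0.0104). It missed the threshold without VPA+Rapamycin replicate 2 (0.0534), and FOXD3-AS1 overlaps it with 64.7% of its counts. The 4 crest markers (SOX10, FOXD3, TFAP2A and TFAP2B) summed to 3.05 to 4.66 CPM in VPA, 7.09 to 13.8 CPM in VPA+Rapamycin and 25.3 to 53.1 CPM in vehicle. In the crest list 2 members rose and 4 fell of 21 tested. The raised were 1 without any VPA replicate or VPA+Rapamycin replicate 3, 4 without VPA+Rapamycin replicate 1 and 0 without VPA+Rapamycin replicate 2, and the lowered were 2 without VPA replicate 1, VPA replicate 3 or VPA+Rapamycin replicate 3. In the fit with vehicle 0 were raised and 0 lowered. Among the lowered, the melanosome gene PMEL fell by 0.64 on the log2 scale, with CDK2 overlapping it at 35.3% of its counts.

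Interferon-induced and antigen presentation genes, whose products guard against viruses, were lowered in 5 of 32 tested members and raised in 0, with a list median of log2 -0.28. BST2, which tethers budding viruses to the cell, went from 22, 15.7 and 15.3 CPM to 9.11, 5.23 and 8.12 CPM (log2 -1.24, SE 0.19, edgeR adjusted p = 0.000791). ISG15, a ubiquitin-like protein, went from 23.2, 21.7 and 26.9 CPM to 14.2, 15.3 and 15.1 CPM (log2 -0.68, SE 0.12, edgeR adjusted p = 0.00219). Both were separate between groups and held. The 5 calls were 3 without VPA replicate 2 or VPA+Rapamycin replicate 3 and 1 in the fit with vehicle.

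Other genes among those with the smallest adjusted p have varied roles. DISC1, a scaffold protein of neuronal development, went from 47.2, 45.5 and 56.4 CPM to 19.1, 18.1 and 13.7 CPM (log2 -1.54, SE 0.13, edgeR adjusted p = 4.20e-07). CHRDL1, a secreted antagonist of BMP, went from 150.4, 146 and 148 CPM to 81.8, 73.0 and 67.4 CPM (log2 -0.99, SE 0.08, edgeR adjusted p = 4.07e-07). PYGL, the glycogen phosphorylase of liver, went from 50.4, 49.8 and 51.9 CPM to 28.8, 27.3 and 28.1 CPM (log2 -0.85, SE 0.09, edgeR adjusted p = 1.78e-05). In vehicle these 3 genes lay at 7.49 to 9.29, 22.1 to 35.3 and 9.02 to 13.4 CPM. SMOC1, a matricellular BMP antagonist, was lowered by 0.86, with the pseudogene RPL7AP6 overlapping it at 15.3% of its counts.

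Among the raised, OTP, a homeodomain factor of spinal and hypothalamic neurons, went from 14.4, 10.6 and 16.4 CPM to 26.7, 32.4 and 29.4 CPM (log2 1.10, SE 0.14, edgeR adjusted p = 0.000127). PRDM8, a chromatin factor of neurons, went from 99.0, 126 and 123 CPM to 173, 276 and 244 CPM (log2 1.00, SE 0.13, edgeR adjusted p = 0.000111). CLK1, a kinase that regulates splicing factors, went from 87.1, 88.7 and 78.6 CPM to 126, 135 and 153 CPM (log2 0.71, SE 0.08, edgeR adjusted p = 5.73e-05). The groups were separate in each. The small GTPase RND3 rose by 0.78, the exchange factor PREX1 by 0.60 and CREBRF, a stress-responsive regulator, by 0.84. B3GAT2 (log2 1.05) and the loci AC099489.1 (1.35) and AL359091.1 (0.75) also rose, each overlapped by another gene (SMAP1, RMI2 and URM1) at 37.2%, 37.3% and 52.5% of its counts. Of the 15 raised and 15 lowered genes with the smallest adjusted p and separate groups, CREBRF, RND3, KLHL24 and COL1A2 were not called in the fit with vehicle.

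At the largest folds, CAPN6, a calpain-like microtubule protein, fell from 6.33, 3.40 and 5.0 CPM to 1.25, 0.756 and 1.32 CPM (log2 -2.14, SE 0.33, edgeR adjusted p = 0.000665). The noncoding LINC02506 (log2 -2.07) and ISM1 (-2.02), a secreted protein, fell too, of which ISM1 missed the threshold without VPA replicate 2 (0.193), VPA replicate 3 (0.0917), VPA+Rapamycin replicate 1 (0.0761) or VPA+Rapamycin replicate 3 (0.141). FAM157B rose by 2.71, from 0.548 ± 0.219 to 3.66 ± 1.96 CPM (SD, n = 3), and MIR9-3HG, the host transcript of a neural microRNA, by 1.77, from 5.26 ± 2.23 to 17.9 ± 7.92 CPM. EVX2, of the V0 interneurons, was at 0.896, 0.371 and 0 CPM against 2.26, 1.86 and 1.38 CPM, the protease PAPPA at 0.717, 0.988 and 0.682 CPM against 2.38, 1.51 and 5.54 CPM and PDK4, a kinase that restrains pyruvate oxidation, at 0.657, 0.247 and 1.48 CPM against 2.44, 2.56 and 3.65 CPM. Each of these 3 passed and lost its call without VPA+Rapamycin replicate 3 (edgeR adjusted p = 0.0943, 0.165 and 0.118). EVX2 also lost it without VPA replicate 2 (0.168), VPA replicate 3 (0.123), VPA+Rapamycin replicate 1 (0.113) or VPA+Rapamycin replicate 2 (0.0927), PAPPA without VPA replicate 3 (0.0554) and PDK4 without VPA replicate 1 (0.0770) or VPA replicate 2 (0.0876). CBSL, an annotated copy of CBS whose reads cannot be assigned with certainty, was high in VPA+Rapamycin replicate 1 alone, with 12.7, 0.988 and 0.944 CPM against 0.597, 0.803 and 1.08 CPM. Without that library its log2 fold change dropped from 2.55 to 0.22 (edgeR adjusted p = 0.867), and its call also ended without VPA replicate 1 (0.130), VPA replicate 2 (0.134) or VPA replicate 3 (0.0960).

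Over 47 gene lists that cover signalling, growth, metabolism, cell cycle and neural identity, 28 medians were below 0, 17 lists had lowered but no raised members and 7 had raised but no lowered members. The lists with lowered members only were those of early response, cell cycle and metabolism described above together with DNA repair, fatty acid synthesis, nucleotide synthesis and others, and those with raised members only included the proneural, HOX and autophagy lists.

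**Figure D4:**
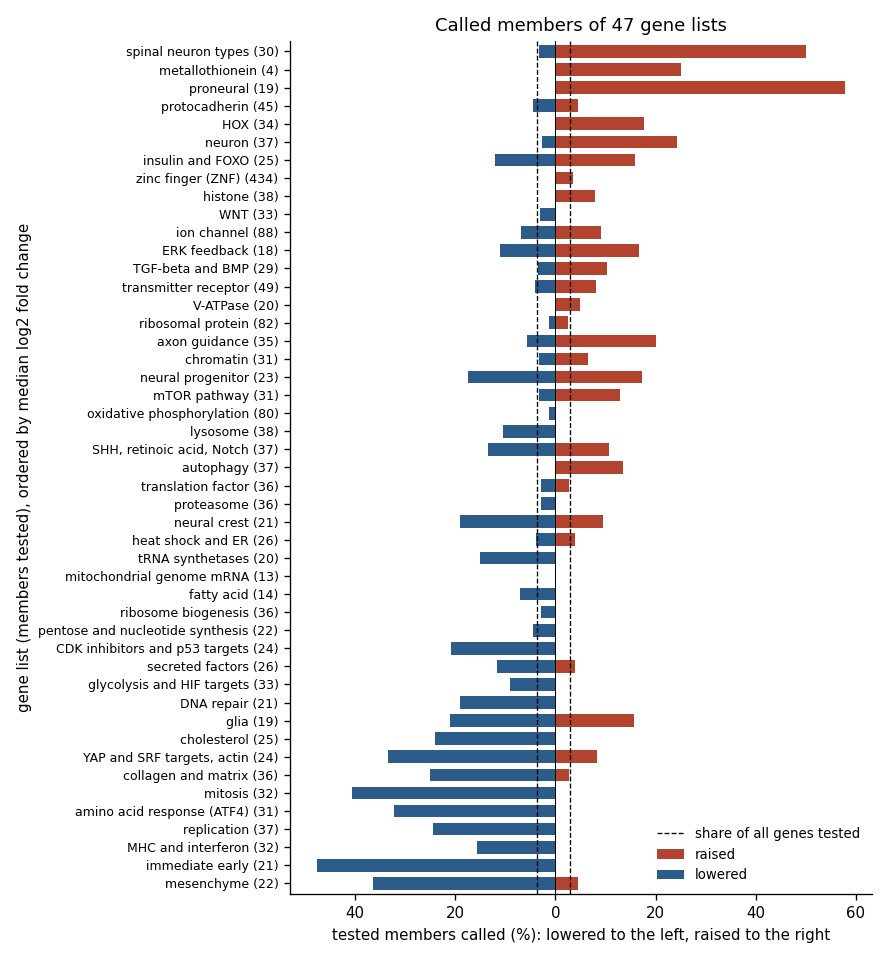
Share of tested members called in each of 47 gene lists (horizontal axis in percent, lowered to the left and raised to the right), ordered by the median log2 fold change, with the number of members tested in brackets. Dashed lines mark the shares of all genes tested, 3.73% lowered and 3.01% raised, and the bars of the spinal neuron types and proneural genes reach furthest to the right.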

How the data were processed

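Messenger RNA of whole SCOs was sequenced in 9 libraries, 3 each labelled vehicle, VPA and VPA+Rapamycin. RNA was purified on poly-T beads and primed with random hexamers. HISAT2 2.0.5 and featureCounts 1.5.0-p3 are named in the submitters' processing notes, and the use of the strand is not given in the sources used here. The authors deposited raw, unscaled counts of reads on each gene, in 1 table for each pair of conditions with GRCh38 coordinates. Every gene in the table of this pair has at least 2 reads in total. A further 36 columns of values per library, normalized counts and FPKM, and the authors' columns of fold changes and p-values were not used.

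The counts of the VPA and VPA+Rapamycin table (29566 genes) entered edgeR 4.0.16 (run in R 4.3.3): TMM normalization, filterByExpr at its defaults (12249 genes left out), the quasi-likelihood F test, Benjamini-Hochberg adjustment over the 17317 genes tested and a threshold of 0.05. No block and no minimum fold change were used. Each SE is the estimate divided by the square root of F. TMM factors over 9 libraries gave the levels. Alternatives were DESeq2 1.42.0, limma-voom (limma 3.58.1), upper-quartile and RLE normalization, no filter, a filter of 10 counts per library, a fit that also held the vehicle libraries, a block on the replicate number, a test of protein-coding genes alone, a 2-fold minimum, and the removal of each library in turn. The replicate numbers of the labels were checked for pairing by correlating deviations from the group means.

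Genes named were the 15 raised and 15 lowered genes with the smallest adjusted p whose libraries do not overlap, the 10 raised and 10 lowered called genes with the largest absolute log2 fold change and a mean of at least 1 CPM, and members of 47 gene lists and of the marker lists. The comparison, lists and members were chosen with earlier results of these data known. For genes of the first 2 kinds, an overlapping gene above 10% of their mean count is named with them. Results for a few genes that these rules name are not reported here. Promoter windows are from RefSeq (GRCh38.p14), matched for 869 of 1168 called genes. Methods were tested on simulated data of 17317 genes with 200 changed.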

Additional observations from a re-analysis of the deposited data

How the results depend on the processing

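The counts of 522 raised and 646 lowered genes stayed within 1.5 times under DESeq2, limma-voom, upper-quartile and RLE normalization, both other filters and protein-coding genes only. A 2-fold minimum left 64 raised and 124 lowered genes. With all 9 libraries in a single fit the counts were 44 and 69, of which 112 genes were among the 1168, and the cause was not tested. Leaving out each library in turn gave 175 to 533 raised and 297 to 670 lowered genes. A replicate block gave 539 raised and 705 lowered genes, and 1066 of the 1168 genes were still called. Deviations of same-numbered libraries from their group means had correlations of -0.0315 to 0.0770, and 3 of 6 libraries correlated best with their own number. The headers of the count columns repeat the same prefixes in every condition, so libraries of a number may come from the same clone. With 3 libraries a group these correlations cannot exclude such pairing. The main test did not use it. No called gene of the lists or of the named genes changed direction under any alternative run. Of 287 such genes, the call was lost for 15 under DESeq2, 29 under limma-voom, 17 under upper-quartile normalization, 16 with the block, 236 with all 9 libraries, and 44 to 141 when a library was left out. The median log2 fold change of all genes moved by 0.0116 under DESeq2, more than under upper-quartile or RLE normalization. DESeq2 was run without the filter on low counts, so its median covers another set of genes. Removing the filter from the edgeR fit alone moved the median by 0.00576.

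With 3 libraries a group recovery was partial: in simulated data edgeR recovered 77.0% of 2-fold and 94.0% of 4-fold changes, and 7.97% of its calls were false, above the nominal 5%. Only 200 genes were changed there, all by 2-fold or 4-fold. Most calls in the data were of smaller changes, so these rates do not describe them. Groups of 3 were too small for a test of single outlying libraries. The floors cover counting error only, while each SE also takes in the spread among libraries. Reads of overlapping genes cannot be assigned where the strand was not used.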

Other observations

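Beyond the groups above, genes of excitability and wiring split in direction. Of 88 tested ion channel genes 8 rose (9.09%) and 6 fell (6.82%), against 3.01% and 3.73% of all genes, with a list median of log2 0.04. The sodium channel SCN1A stood at 34.2, 30.7 and 33.7 CPM in VPA and 19.9, 14.2 and 19.3 CPM with Rapamycin (log2 -0.88, SE 0.12, edgeR adjusted p = 0.00034), where vehicle libraries held 1.48 to 2.17 CPM. CACNA2D3, an auxiliary calcium channel subunit, rose from 1.67, 1.54 and 1.99 CPM to 5.54, 5.58 and 4.60 CPM (log2 1.59, SE 0.26, edgeR adjusted p = 0.0013), with LRTM1 inside it at 83.7% of its counts. Neither gene overlapped between groups. The 8 raised channels were 5 without VPA replicate 1, 2 without VPA replicate 2 or VPA+Rapamycin replicate 2, 4 without VPA replicate 3 and 3 without VPA+Rapamycin replicate 3, and the 6 lowered were 3 without VPA replicate 3. The fit with vehicle called 1 raised and 1 lowered channel. Among 35 axon guidance genes 7 rose and 2 fell. SEMA3E, a repellent semaphorin, fell from 15.8, 25.5 and 19.2 CPM to 8.22, 6.40 and 6.48 CPM (log2 -1.51, SE 0.18, edgeR adjusted p = 5.38e-05), while the commissural receptors DCC and ROBO3 rose by 0.43 and 0.64 and held. The 7 raised were 4 without VPA replicate 1 or VPA replicate 3 and 2 without VPA replicate 2 or VPA+Rapamycin replicate 3, and the fit with vehicle called 0 raised and 1 lowered.

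Of 19 glial genes 4 fell and 3 rose, and the raised were 0 without VPA replicate 1 or VPA+Rapamycin replicate 3 and 1 without VPA replicate 2 or VPA replicate 3. The fit with vehicle called 0 raised and 1 lowered glial gene. APOE, a lipid carrier of glia, fell from 62.6, 58.7 and 62.1 CPM to 40.3, 33.5 and 30.1 CPM (log2 -0.81, SE 0.10, edgeR adjusted p = 9.86e-05). Of 31 tested chromatin modifiers, a list that includes histone deacetylases, 2 rose (6.45%) and 1 fell (3.23%), against 3.01% and 3.73% of all genes. The fit with vehicle called 0 of them. HDAC9, a class IIa deacetylase, fell from 85.3, 87.6 and 86.8 CPM to 56.2, 56.9 and 60.3 CPM (log2 -0.58, SE 0.07, edgeR adjusted p = 0.000135), and HDAC5, of the same class, rose from 50.5, 54.4 and 52.1 CPM to 75.0, 77.2 and 66.8 CPM (log2 0.48, SE 0.08, edgeR adjusted p = 0.00171). The groups were separate for APOE, HDAC9 and HDAC5. Of 34 tested HOX genes 6 rose and 0 fell, with 29 higher estimates and a median log2 fold change of 0.21, though only HOXB8 held (log2 0.45) and HOXB7 overlaps it at 36.3% of its counts. The 6 were 2 without VPA replicate 1, VPA replicate 2 or VPA+Rapamycin replicate 2, 3 without VPA replicate 3 and 0 in the fit with vehicle. Of 434 tested zinc finger genes of the ZNF series, 316 had a higher estimate, 15 rose (3.46%, near the 3.01% of all genes tested) and 0 fell, with a list median of log2 0.12. The 15 were 9 without VPA replicate 1, 4 without VPA replicate 2, 8 without VPA replicate 3, 7 without VPA+Rapamycin replicate 3 and 0 in the fit with vehicle. Genes that do not code for protein were 18.2% of those tested, 12.5% of the raised and 2.32% of the lowered genes, with 65 raised (2.07%) and 15 lowered (0.477%) among 3147 tested.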
